A study of Drosophila melanogaster with 2 samples.

Results

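Where schlank bound at 32 neuronal genes was examined in a ChIP-seq experiment on whole Drosophila melanogaster embryos. The genes were chosen by name, and all 32 of 32 were found among the 13945 protein-coding genes that Ensembl annotates on the major chromosome arms. For each gene, every peak was taken whose summit lay inside the gene or within 500 bp of one of its transcription start sites (TSSs), and this stretch is called the gene's region. This gave 11 of the 2790 summits of the thresholded peak set and 132 of the 30000 summits of the pooled candidate list.

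schlank is the ceramide synthase of the fly, a membrane enzyme that makes ceramides and holds a homeodomain in its sequence. The embryos were of mixed sex and 0 to 24 h old, and came from a transgenic line that stably carries schlank with GFP at its C terminus. There was 1 group with 2 biological replicates. Conditions could therefore not be compared, and no library without the tagged protein was used here. The antibody given for both is against schlank, while a free-text description calls them input controls; the former was followed. The lists hold peak positions and a signal per peak, and read depth is unknown. The signal is the authors' own value, its scale differs between lists, and ranks within a list are given beside it. A whole embryo holds neurons among many other cells, so which cells gave a peak cannot be told from these lists.

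The genes act at successive steps of a neuron's life and signalling. Transcription factors and RNA-binding proteins set neuronal identity, channels carry the action potential, and calcium entering at the active zone of the synapse triggers fusion of vesicles by SNARE proteins. The vesicles have been filled with transmitter by transporters, and adhesion and cytoskeletal proteins hold axons and synapses in place.

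Thresholded summits were found at 6 of the 32 neuronal genes (18.8%), namely elav, Nrx-1, ChAT, shot, pros and Fas2. The same rule found a thresholded summit at 16.7% of all protein-coding genes. Neuronal genes are long, with a median of 30.4 kb against 2.17 kb for protein-coding genes, and a longer gene can hold more summits by its length alone. Among the 5673 protein-coding genes within the length range of the list (2.77 to 225 kb), 26.8% had a thresholded summit. For each neuronal gene, the genes of 0.5 to 2 times its length were therefore also taken, and on average 35.5% of them had one. The count at the neuronal genes was close to the share of all genes and below the shares of genes of like length. No test was made of this difference, since the genes were chosen by name with earlier results of these data known.

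The sequence at the strongest thresholded summit of 3 of these genes is shown first. It is given on the dm6 plus strand, centred on the strongest thresholded summit of elav (chrX:523437-523537), ChAT (chr3R:18719888-18719988) and Fas2 (chrX:4202514-4202614), with the 5 bases around the summit in capitals.
elav: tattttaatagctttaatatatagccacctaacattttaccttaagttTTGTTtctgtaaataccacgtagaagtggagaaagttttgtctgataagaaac
ChAT: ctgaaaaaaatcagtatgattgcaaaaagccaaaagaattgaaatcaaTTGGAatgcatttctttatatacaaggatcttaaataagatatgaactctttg
Fas2: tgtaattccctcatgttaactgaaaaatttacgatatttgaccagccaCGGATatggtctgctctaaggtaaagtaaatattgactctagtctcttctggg
The GC content of these stretches was 28.7% for elav, 26.7% for ChAT and 37.6% for Fas2.

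elav, which encodes the RNA-binding protein that marks postmitotic neurons, carried the strongest peak of the 32 genes. The gene (FBgn0260400) lies on the minus strand of chromosome X from 509235 to 523226 and held 3 thresholded summits. The strongest lay at 523487, 261 bp upstream of its TSS, with a pooled signal of 777 (rank 77 of 2790). Both replicates had a strong candidate there, with a signal of 250 in replicate 1 (rank 61 of 30000) and 526 in replicate 2 (rank 97). The second lay at 522636, 590 bp downstream of the TSS in an intron, with a pooled signal of 403 (rank 341). The replicates stood far apart there, since its candidate ranked 199 in replicate 2 (signal 380) but 7067 in replicate 1 (signal 24.9). The third lay at 515903 in the 3' untranslated region (UTR) of elav, with a pooled signal of 137 (rank 2274), and ranked 1502 in replicate 1 and 3318 in replicate 2. All 3 summits also lie inside the span of arg, a gene on the other strand, and inside that of the non-coding gene lncRNA:enrr or within 500 bp of its TSS. Of the 1888 genes of similar length, 96.0% held fewer thresholded summits than elav, against a mean of 0.51 summits per gene.

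The other genes of neuronal identity were marked less strongly. pros encodes a homeodomain transcription factor that ends the divisions of neural precursors, and it held 1 thresholded summit at 11392992 on 3R with a signal of 178 (rank 1464). This summit lay in the 3' UTR of pros, 20204 bp from the nearest TSS of the gene, and ranked 1224 in replicate 1 and 1830 in replicate 2. The promoter candidate of pros, 15 bp downstream of a TSS, had a signal of 57.2. fne encodes an RNA-binding protein of the Elav family, and its strongest candidate fell just below the weakest thresholded peak, with a signal of 118 against 121. That candidate also lay in the 3' UTR of its gene, and both replicates had one there, with signals of 31.5 and 79.0. scrt, which encodes a zinc finger factor of the Snail family, had a promoter candidate with a signal of 76.3. onecut, a homeodomain factor gene on chromosome 4, had no pooled candidate and 1 in replicate 1, with a signal of 17.8.

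Among the genes of the cytoskeleton and adhesion, shot, Nrx-1 and Fas2 had thresholded summits and futsch and Dscam1 had none. Nrx-1 encodes neurexin, a presynaptic adhesion protein. Its summit at 22469289 on 3R lay in the 5' UTR, 108 bp downstream of one of its 3 TSSs, with a pooled signal of 419 (rank 314). Its candidates had a signal of 63.5 in replicate 1 (rank 1280) and 353 in replicate 2 (rank 229). The other pooled candidates of Nrx-1 were far weaker, the stronger with a signal of 46.5.

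shot encodes a spectraplakin that links actin and microtubules, and it serves the epidermis and tendon cells as well as axons. It is 77.9 kb long with 4 TSSs, and held 4 thresholded summits and 31 pooled candidates, both the highest counts of the list. The strongest thresholded summit lay 79 bp upstream of a TSS (signal 196), the next 54 bp upstream of another (signal 168) and a further one 14 bp downstream of yet another (signal 138). The last of the 4 lay in an intron, 1822 bp from the nearest TSS of the gene, with a signal of 123. The gene lies on arm 2R, so its sequence is not shown, and those of Nrx-1 and pros are left out because their summits lie in UTRs. None of the 4 ranked higher than 1250 in the thresholded set. Of 452 genes of similar length, 94.0% held fewer thresholded summits and 87.4% fewer pooled candidates than shot. The mean of those genes was 15.3 pooled candidates. In replicate 1 shot had 24 candidates against a mean of 16.1, and in replicate 2 it had 31 against 14.7. The promoter summit with a signal of 138 had no replicate 1 candidate within 200 bp, and it was the exception among the 11 thresholded summits.

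Fas2 encodes an adhesion molecule of the immunoglobulin family that bundles motor axons. Its thresholded summit at 4202564 lay in an intron 3529 bp from the TSS, with a signal of 166 (rank 1661). A candidate 38 bp downstream of the TSS had a signal of 119 and so fell just outside the thresholded set. Replicate 2 ranked both sites higher, the intronic one at 1341 and the promoter one at 2262, than replicate 1 did, at 3766 and 6601. futsch, which encodes a microtubule-binding protein of axons, had 2 pooled candidates, the stronger with a signal of 55.1, and no candidate in replicate 1. Dscam1, the adhesion gene known for its very many splice forms, had 5 pooled candidates over 64.0 kb, the strongest with a signal of 66.4.

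**Figure D1:**
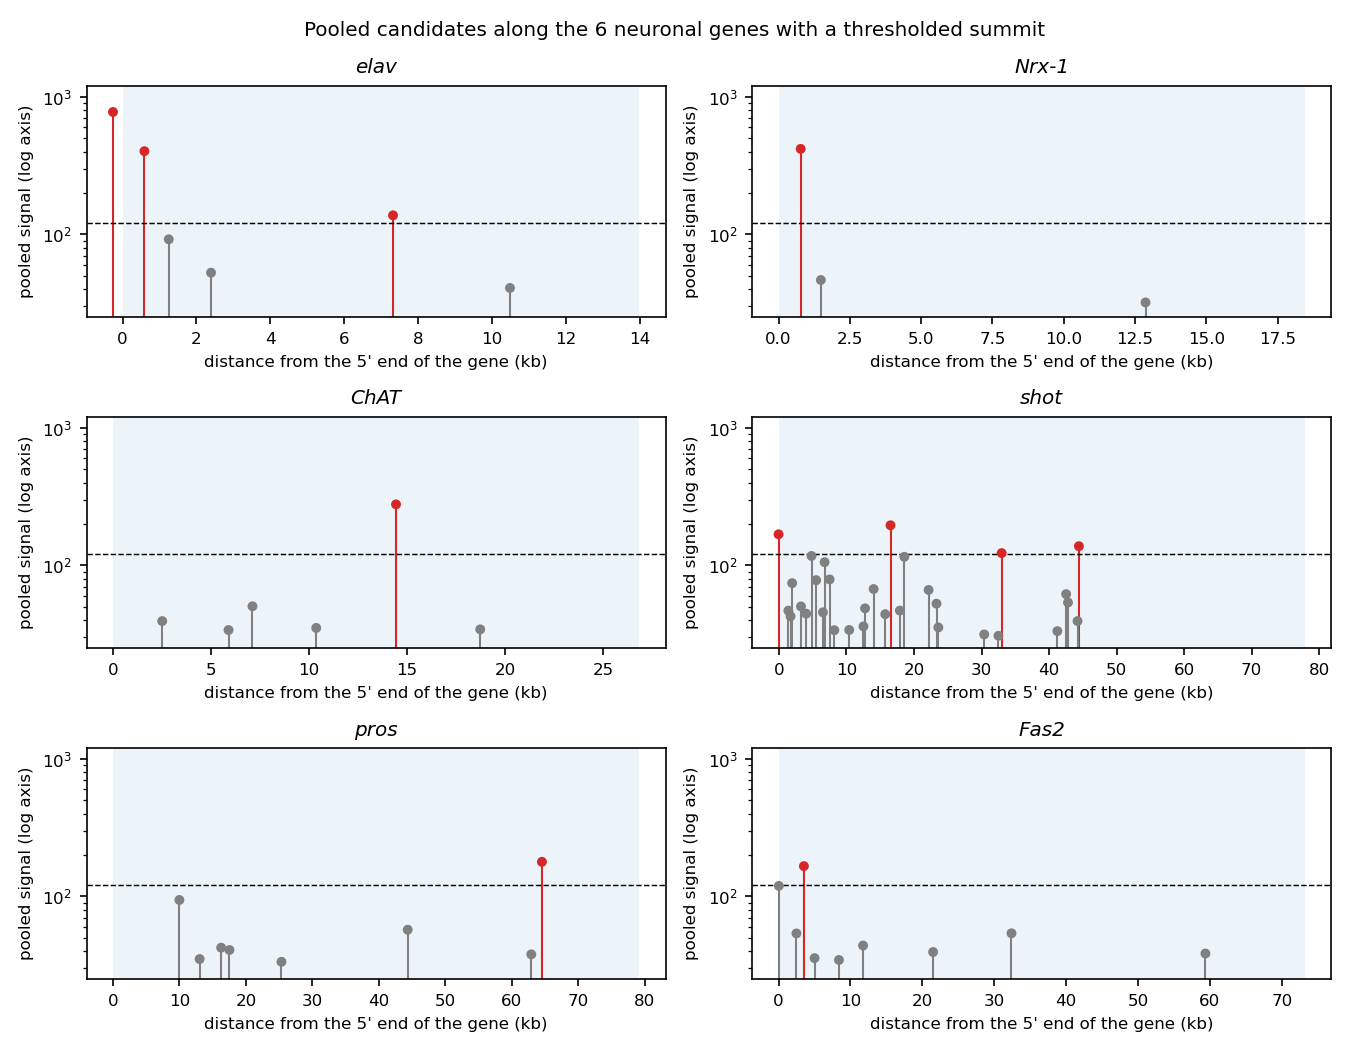
Pooled candidate summits along the 6 neuronal genes with a thresholded summit, plotted as distance from the 5' end of the gene in kb against the deposited pooled signal on a log axis. Red marks thresholded summits, grey other candidates, the shaded span is the gene, and the dashed line is the weakest thresholded signal (121). The summits of elav with signals of 777 and 403 sit near the 5' end of the gene, and those of ChAT and pros lie deep inside their genes.

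Of the genes of transmitter synthesis and loading, 1 of 7 had a thresholded summit, where 16.7% of all protein-coding genes had one. The means of genes of similar length add up to 2.73 thresholded summits for these 7. The gene with a summit was ChAT, which encodes choline acetyltransferase, the enzyme that makes acetylcholine. Its summit, at 18719938 on 3R, had a pooled signal of 278 (rank 679), with 76.2 in replicate 1 (rank 881) and 205 in replicate 2 (rank 650). It lay 14437 bp from the TSS of ChAT, but 315 bp downstream of that of lncRNA:CR46265, in an exon of this non-coding gene. VAChT, the vesicular acetylcholine transporter gene nested in ChAT, shares its TSS in the annotation and ends before this summit. All 4 pooled candidates of VAChT are also counted for ChAT, and the strongest of them had a signal of 50.4.

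The remaining transmitter genes had weak candidates or none. ple encodes tyrosine hydroxylase, the first enzyme of dopamine synthesis, and Ddc the dopa decarboxylase that follows it. Both enzymes also serve the hardening of the cuticle. ple had 4 pooled candidates, against a mean of 1.96 in genes of similar length, the strongest with a signal of 50.7. In the replicates it was below such means, with 1 candidate against 1.74 in replicate 1 and 2 against 2.05 in replicate 2. The single pooled candidate of Ddc, 67 bp downstream of its TSS, had a signal of 54.3, and replicate 1 had none in the gene. VGlut, the vesicular glutamate transporter gene, had a lone candidate in replicate 1 with a signal of 16.7. Gad1 and VGAT, which encode the enzyme that makes GABA and the transporter that loads it, had no candidate in any list. They were the only 2 genes of the 32 without one.

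None of the 6 genes of vesicle fusion and 4 of the active zone had a thresholded summit. Of all protein-coding genes, 16.7% had one. The means of genes of similar length add up to 3.52 thresholded summits for the vesicle fusion genes and 3.06 for the active zone genes. No test was made of this difference. The vesicle fusion genes encode the SNARE proteins nSyb, Syx1A and Snap25, the calcium sensor Syt1, the chaperone Csp and the priming factor unc-13. These 6 genes held 12 pooled candidates, where the means of genes of similar length add up to 48.1. Of this sum, 24.0 belongs to Snap25 alone. Csp came nearest to the thresholded set, with a candidate 26 bp from its TSS that had a pooled signal of 91.0. Its candidates stood apart between the replicates, with a signal of 95.2 in replicate 2 (rank 2458) and none within 200 bp in replicate 1. Of the 5 replicate 1 candidates of Csp, 2 lay within 500 bp of a TSS of the gene, each with a signal of 16.5. Syx1A had a candidate in its 3' UTR with a signal of 69.4, which ranked 2679 in replicate 1 and 17809 in replicate 2, and a promoter candidate of nearly equal signal (69.1). The strongest pooled candidates of Syt1 and nSyb had signals of 50.9 and 33.1. Snap25, at 225 kb the longest gene of the list, had no pooled candidate, against a mean of 24.0 in 66 genes of similar length. Of those 66 genes, 81.8% had at least 1 pooled candidate, so Snap25 was not alone in having none.

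unc-13 lies on chromosome 4, where the replicates differed as a whole. It held 20 candidates in replicate 1 and 2 in replicate 2, and the arm held 483 and 74 of the 30000 candidates of each. Whether this difference in the arm accounts for the candidates of unc-13 was not tested.

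The active zone genes brp, Rbp, Rim and cac encode 3 scaffold proteins and the presynaptic calcium channel. Together they held 3 pooled candidates, where the means of genes of similar length add up to 39.8. The candidate of brp had a signal of 56.5 and the stronger of cac 32.3. Replicate 1 had no candidate within 200 bp of that of brp, and neither replicate had one at those of cac. Rbp and Rim had no pooled candidate, although Rbp had 2 in replicate 1 and 1 in replicate 2, and Rim had 2 in replicate 2. The highest signal among these was 36.6, for Rim in replicate 2.

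The ion channel and receptor genes held pooled candidates below the weakest thresholded peak. They encode the sodium channel para, the potassium channels Sh, Shab and eag and the GABA receptor subunit Rdl. None of the 5 had a thresholded summit, against 16.7% of all protein-coding genes. The means of genes of similar length add up to 4.54 thresholded summits for these 5. All 5 had pooled candidates, 34 together, where the means of genes of similar length add up to 71.0. Sh had 11, the strongest in an intron with a signal of 108 (rank 3387 of 30000), which each replicate also listed. Shab had a promoter candidate 173 bp upstream of its TSS with a signal of 84.3 and a stronger intronic one with 97.2. The highest signals of eag, para and Rdl were 57.9, 59.8 and 34.0. The pooled signal of the strongest candidate was thus between 34.0 and 108 in these genes, below the 121 of the weakest thresholded peak.

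**Figure D2:**
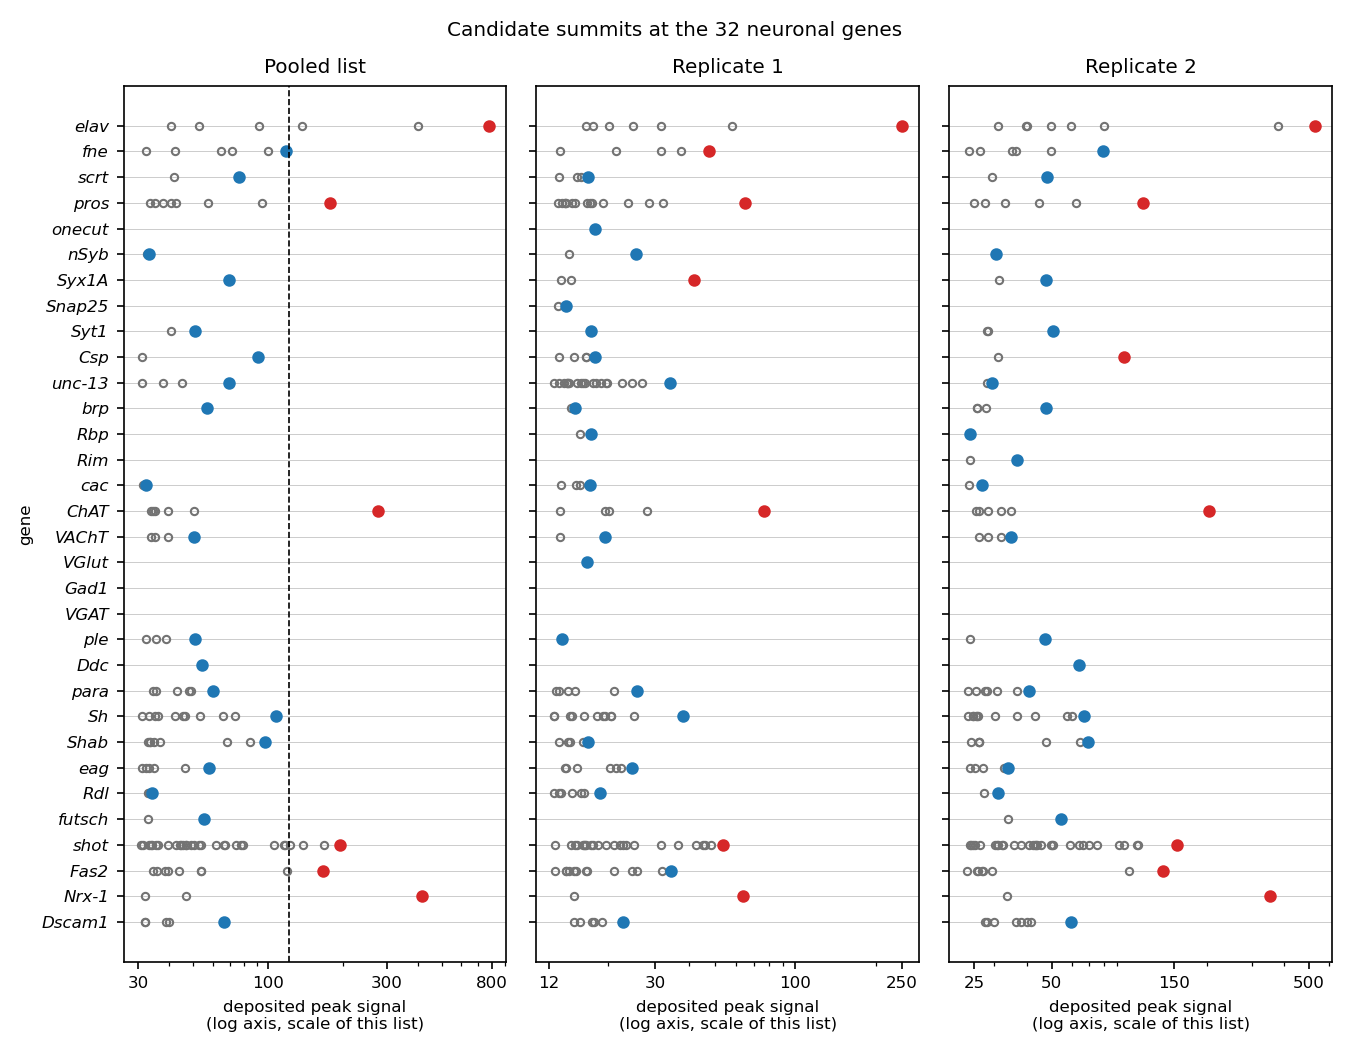
Candidate summits of each of the 32 genes (rows) in the pooled list and in each replicate, by deposited signal on a log axis with the scale of that list. Open circles are candidates, filled circles the strongest of a gene, red where it ranks among the 2790 strongest of that list and blue where it does not, and the dashed line is the weakest thresholded signal (121). elav is the highest gene in all 3 panels, and Gad1 and VGAT have no point in any.

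Pooled candidates were also fewer at the neuronal genes than at genes of like length. At least 1 pooled candidate was found at 25 of the 32 genes (78.1%), against 57% of all protein-coding genes, 78.9% of those within the length range and 88.1% on average of genes of similar length. The 7 genes without one were onecut, Snap25, Rbp, Rim, VGlut, Gad1 and VGAT. Summed over the list, the genes held 136 pooled candidates, with those in both ChAT and VAChT counted for each, where the means of genes of similar length add up to 278. This is a ratio of 0.489, and without shot it was 0.40. In the other direction, Snap25, which had no pooled candidate, adds 24.0 to the 278. In replicate 1 the ratio was 0.580 and in replicate 2 it was 0.514. A candidate was found at 27 of the 32 genes in each replicate (84.4%), against 53.9% of all protein-coding genes in replicate 1 and 58.6% in replicate 2. Of the genes within the length range, 77.4% and 79.5% had one, and of genes of similar length 88.4% and 88.3% on average. For thresholded summits the ratio was 0.523, with 11 summits against 21.0, and it fell to 0.348 without shot, which held 4 of the 11.

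Low counts were spread over the list. The pooled count was below the median of genes of similar length in 22 of the 32 genes, at it in 4 and above it in 6, which were elav, shot, Syx1A, Csp, VAChT and ple. Only elav, shot, Syx1A and ple (12.5% of the list) exceeded the mean of such genes, as 42.1% of all protein-coding genes and 42.3% of those within the length range did. In replicate 1 the count was below the median in 21 genes and above it in 8, and in replicate 2 in 22 and 4. The mean was exceeded by 6 genes in replicate 1 (18.8%), against 41.2% of all protein-coding genes and 46.2% of those within the length range. In replicate 2 it was exceeded by 3 genes (9.38%), against 42.9% and 42.2%. All 6 genes with a thresholded summit exceeded the mean thresholded count of similar genes (18.8%), but this mean is below 1 for each of them, so that a single summit suffices. Of all protein-coding genes 16.5% did so, and of those within the length range 26.3%. Per length, the median gene of the list had 0.947 pooled candidates per 10 kb of its region. The median over the 5673 genes within the length range was 2.45.

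**Figure D3:**
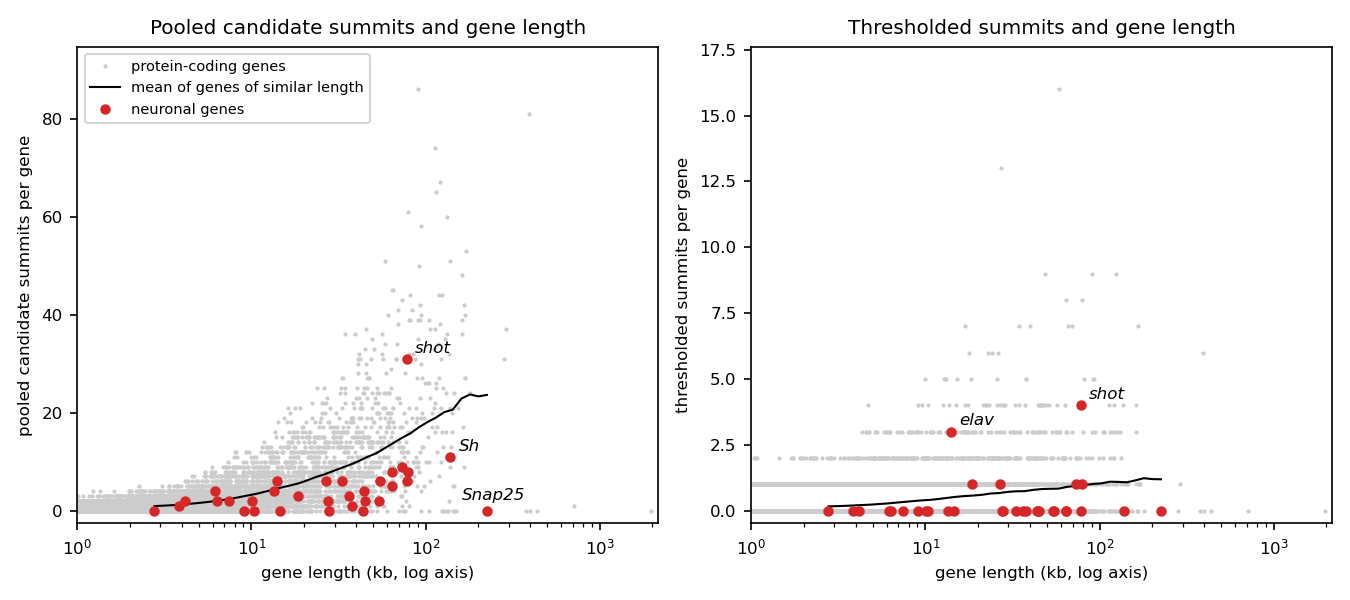
Number of pooled candidate summits (left) and thresholded summits (right) per gene against gene length in kb on a log axis, for protein-coding genes of at least 1 kb (grey) and the 32 neuronal genes (red). The black line is the mean over genes of 0.5 to 2 times the length, and most neuronal genes lie below it in the left panel, with shot (31 candidates) above and Snap25 at 0.

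The candidates that were present had ordinary strength. The median signal of the 132 pooled member summits was 44.8, against 45.0 for all 30000, and 8.33% of them were thresholded, against 9.3% of all. The strongest 2790 candidates of replicate 1 included 12 of its 163 summits at these genes (7.36%), and those of replicate 2 included 13 of 135 (9.63%), where 9.3% of each list is in that set. Each replicate thus had such a summit at 7 genes, against 16.9% of all protein-coding genes in replicate 1 and 16.2% in replicate 2. These shares do not allow for gene length, and none that does was taken. For the thresholded set, also of 2790 summits, 26.8% of genes within the length range had a summit. Of genes of similar length, 35.5% on average had a thresholded one. The replicates shared 5 of these genes, namely elav, pros, ChAT, shot and Nrx-1. Replicate 1 added fne and Syx1A, and replicate 2 added Csp and Fas2. How often the replicates shared such genes among all protein-coding genes was not counted.

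The presence of each summit in the replicates was then counted. The thresholded set was itself chosen by IDR for reproducibility between these replicates, so its counts are a description and do not show that strong sites replicate better. Of the 11 thresholded summits, 10 had a candidate within 200 bp in both replicates (90.9%, exact Clopper-Pearson 95% interval 58.7 to 99.8, for counting error only), against 94.6% of all thresholded summits. Of the 132 pooled summits, 39 did (29.5%, 21.9 to 38.1), against 37.9% of all pooled summits. Replicate 1 had a candidate at 69 of them (52.3%) and replicate 2 at 92 (69.7%), against 53.7% and 76.8% of all pooled summits. Neither replicate had one at 10. Across the 39 shared summits, which come from the same 2 libraries and in part from the same genes, the signals of the replicates had a Spearman's rho of 0.53.

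Promoters were then taken alone. A thresholded summit within 500 bp of their own TSS was found at elav, Nrx-1 and shot, which is 3 of 32 genes (9.38%), against 12.7% of all protein-coding genes and 17.5% of those within the length range. A pooled candidate was found there at 16 genes (50%), against 47.9% and 63.9%. Replicate 1 had one at 11 genes (34.4%), against 43.5% of all protein-coding genes and 58.6% of those within the length range. Replicate 2 had one at 20 (62.5%), against 48.6% and 64%. Among the strongest 2790 candidates, replicate 1 had a promoter summit at the same 3 genes as the thresholded set, and replicate 2 also at Csp and Fas2, 5 in all. The share of all protein-coding genes with such a promoter summit was not taken, so these counts cannot be called high or low.

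By annotation, 6 of the 11 thresholded summits lay within 500 bp of the TSS of any gene (54.5%), 3 in introns (27.3%) and 2 in 3' UTRs (18.2%). Of the 2430 thresholded summits in the regions of all protein-coding genes, 58.1% lay at a TSS, 39.3% in introns and 1.28% in 3' UTRs. Of the pooled ones, 82 of 132 lay in introns (62.1%), 29 within 500 bp of a TSS (22.0%), 15 in 3' UTRs (11.4%), 3 in coding exons and 3 in 5' UTRs. Of the 23532 pooled summits in the regions of all protein-coding genes, 53.6% lay in introns, 34.1% at a TSS and 2.83% in 3' UTRs. Neuronal genes have long 3' UTRs, so the summits were also set against the bases of each class. Promoter windows of the neuronal genes held 3.04 pooled summits per 10 kb, against 4.87 over all protein-coding gene regions. Introns held 0.997 against 2.62, and coding exons 0.165 against 0.978. In 3' UTRs the pooled densities were alike, with 1.12 per 10 kb in both. The thresholded density there was 0.150 per 10 kb, from 2 summits, against 0.0523. The 15 summits in 3' UTRs lay in those of elav, fne, scrt, pros, Syx1A, unc-13, brp, VAChT, para, Sh, Shab and Rdl, with 2 each in elav, para and Rdl. Those of elav at 515903 and of pros were thresholded, and the others had signals of 31.1 to 118.

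**Figure D4:**
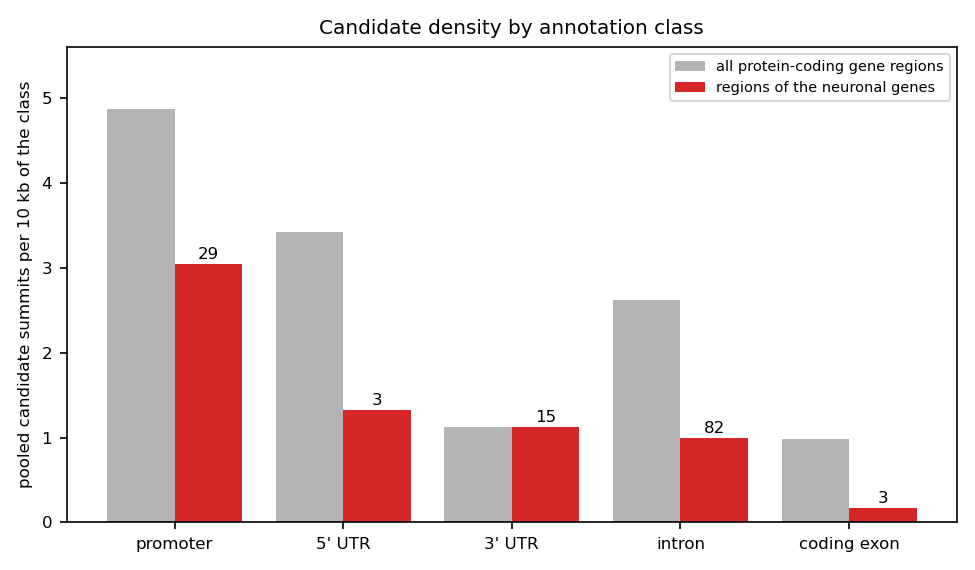
Pooled candidate summits per 10 kb of each annotation class, in the regions of all protein-coding genes (grey) and of the 32 neuronal genes (red), with the number of summits at the neuronal genes above each red bar. Promoter windows take precedence over the other classes, and the bars are equal in height for 3' UTRs (1.12) and lower for the neuronal genes in the other classes shown.

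Sequence at the member summits was described by 7 short motifs searched on both strands within 100 bp of the summit. GAGAG, bound by GAGA factor, occurred at 5 of the 11 thresholded summits (45.5%), against 25.5% of all 2790, and at 46 of the 132 pooled ones (34.8%), against 23.9% of all 30000. Of the 5, 3 were in shot, and the others were the intronic summit of elav and the summit of pros. shot also held 31 of the 132 pooled summits, and its part of the 46 with GAGAG was not counted. CAGGTG, an E-box bound by Scratch and Snail, occurred at 3 of 11 (27.3%), 2 of them in shot and 1 in Fas2, against 5.73% of all thresholded summits. Among pooled summits it went the other way, with 5.30% against 7.80%. TAATTA, the core of many homeodomain sites, was at 0 of 11 thresholded summits, against 14.6% of all. That allows a share of up to about 27.3%, a rough limit taken here and below as 3 divided by the number of summits. Among pooled summits, TAATTA was at 15 of the 132 (11.4%), against 11.4% of all.

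The homeodomain variant TAATGA, the Zelda site CAGGTAG, the Dref site TATCGATA and the proneural E-box CAGCTG were at none of the 11 either, against 12.7%, 1.00%, 3.26% and 10.2% of all thresholded summits. Among pooled summits at the neuronal genes, TAATGA was at 7.58%, CAGGTAG at 0%, which allows up to 2.27%, TATCGATA at 1.52% and CAGCTG at 15.2%, against 11.4%, 1.05%, 1.39% and 9.99% of all. CAGGTG and CAGGTAG share their first 5 bases. The 201 bp around the intronic summit of elav (chrX:522536-522736) and the summit of Fas2 (chrX:4202464-4202664) are printed to show these matches, with the matched bases in capitals, and were chosen after the matches were seen. GAGAG stands there on the other strand, as CTCTC, at 3 places.
elav intron: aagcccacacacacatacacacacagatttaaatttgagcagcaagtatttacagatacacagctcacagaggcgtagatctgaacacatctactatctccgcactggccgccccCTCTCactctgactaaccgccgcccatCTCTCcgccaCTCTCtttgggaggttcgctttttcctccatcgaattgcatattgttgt
Fas2 intron: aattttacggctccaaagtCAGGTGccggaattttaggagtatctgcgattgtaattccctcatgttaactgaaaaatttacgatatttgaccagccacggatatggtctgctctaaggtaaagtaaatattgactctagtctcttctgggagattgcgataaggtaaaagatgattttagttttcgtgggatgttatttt
The GC content within 100 bp of the thresholded member summits was 41.2% ± 8.46 (SD, 11 summits), against 38.5% ± 7.35 (SD, 2790 summits), and for pooled ones 42.7% ± 8.82 (SD, 132 summits) against 43.1% ± 7.91 (SD, 30000 summits).

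Other neuronal genes were taken in 6 lists drawn up beside the 32, and the lists differed from each other. Of 108 genes found under their names, 17 had a thresholded summit (15.7%), against 16.7% of all protein-coding genes and 30.9% on average of genes of similar length. The list of other vesicle release genes again had none, at 0 of 15, against 27.2% on average of genes of similar length. A pooled candidate was found at 12 of these 15, against 57% of all protein-coding genes, and no share of genes of similar length was taken for it. Other transmitter genes had 1 of 11 (9.09%) and transmitter receptors 1 of 23 (4.35%), against 27.4% and 29.3% of genes of similar length. Channels had 4 of 12 (33.3%), close to the 35.9% of genes of similar length, and 2 of those had a summit at their promoter. However, the summit of NaCP60E (signal 541) lay nearest to the TSS of RpL41, and that of sei (signal 125) nearest to that of gammaSnap1. Factors of neural precursors and differentiation had 4 of 19 (21.1%), close to the 22.6% of genes of similar length. Promoter summits lay at numb (signal 387), lola (313) and brat (134). Axon guidance and adhesion genes had 7 of 28 (25%), against 39.0% of genes of similar length, with promoter summits at PlexA (209), robo2 (168) and Fas3 (145).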

How the data were processed

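ChIP-seq peak lists of 2 replicates of 1 group were used. Per the deposited file lists, the authors made a candidate list for each replicate and for both pooled to serve IDR, which scores reproducibility, each against a control, and derived the optimal thresholded set from them, on assembly dm6. Aligner, peak caller and IDR cutoff: not given in the sources used here. Peaks were ranked and described, within a list, by the authors' signal value. The authors also deposited −log10 q values, which were left aside because they reach a ceiling. Summits were placed by adding the offset score in the deposited files to each start, and positions are 1-based.

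Genes and TSSs came from Ensembl release 115 (BDGP6.54), and sequence from the NCBI Release 6 assembly; no peak lay beyond the end of its arm. Members were all 32 genes. Those with a thresholded summit were named with up to 4 summits, the others by their strongest candidate, and related genes by a thresholded promoter summit. Members and lists were chosen with earlier results of these data known, and no test was made. Precision is limited by the unknown depth. Alternatives were other promoter windows, the gene span alone, peak overlap, stronger peaks, other length ranges and match distances, and each replicate alone. Assignment was tested on simulated data. Computation used pandas 2.3.3 and numpy 2.4.6 under Python 3.11.15, with intervals from scipy 1.17.1 and plots from matplotlib 3.10.9.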

Additional observations from a re-analysis of the deposited data

How the results depend on the processing

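Of 41 values under the alternatives, 33 stayed within 1.5 times the reported count, within its interval or within the spread between replicates. In the stronger 50% of thresholded peaks, 5 summits lay at the neuronal genes in place of 11, and 100% of them had a candidate in both replicates. The median candidate density was 0.930 per 10 kb with a promoter window of 250 bp, 0.967 by overlap of the peak interval and 0.908 over the gene span alone, against an SD of 0.0146 between replicates. With the strongest candidates of 1 replicate in place of the thresholded set, the count of genes with a summit was 7 to 7, with a promoter summit 3 to 5, of summits 12 to 13 and of genes above the mean of similar length 6 to 6. Over all 30000 candidates of 1 replicate, the median density was 1.05 to 1.07. The higher promoter count, 5, was that of replicate 2, without replicate 1. No paired analysis was possible because there was 1 group and no test. Read depth was unknown, so a weak candidate in 1 replicate alone cannot be told from one missed in the other.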

Other observations

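Glial genes, the support cells of the nervous system, were listed beside the neuronal ones. Of 12 glial genes, 4 had a thresholded summit, against 16.7% of all protein-coding genes and 24.6% on average of genes of similar length. These were moody, which encodes a receptor of the blood-brain barrier, Gs2, a glutamine synthetase gene, pnt, an ETS transcription factor gene, and loco, which encodes a regulator of G protein signalling. The strongest signals were 966 at moody, 397 at Gs2, 241 at pnt and 221 at loco. All 4 sites had a candidate in both replicates, as did 94.6% of all thresholded summits, a set chosen for reproducibility. moody and pnt had a thresholded summit at their own promoter, and that of pnt had a signal of 146. Neither repo nor gcm, the genes that define glial fate, had a thresholded summit.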
